A study of Homo sapiens with 10 samples.

Results

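The nuclear genes that encode subunits of the oxidative phosphorylation complexes were examined in 6 ChIP-seq peak lists of 22RV1, an established human prostate cancer cell line. Genes were taken by symbol: NDUFA, NDUFB, NDUFC, NDUFS or NDUFV followed by digits, SDHA to SDHD, and symbols that begin with UQCR, COX4 to COX8 or ATP5 and hold no hyphen. The rule found 85 of the 20037 nuclear protein-coding genes in the RefSeq table of GRCh38.p14, namely 36 of complex I, 4 of complex II, 9 of complex III, 17 of complex IV and 19 of complex V. NDUFA4 carries the symbol COXFA4 in that table and therefore lay outside the rule, as did NDUFAB1.

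Complexes I to IV form the respiratory chain of the inner mitochondrial membrane. Complexes I and II pass electrons from NADH and succinate to ubiquinone, complex III passes them to cytochrome c, and complex IV passes them to oxygen. Complexes I, III and IV pump protons, and complex V, the ATP synthase, uses the proton gradient to make ATP. Most subunits are encoded in the nucleus, and many of their promoters are known to hold sites for NRF1, for ETS family factors such as GABPA, and for YY1.

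The 6 immunoprecipitated libraries formed 3 pairs with 1 library per group: an siRNA against RB1 and its control siRNA, a plasmid named HA-RB(245-255) and its empty vector EV(245-255), and a plasmid named HA-RBN and its empty vector EV(RBN). RB1 encodes RB, the retinoblastoma tumour suppressor, and the HA plasmids overexpressed the RB constructs in their names. The labels name no antibody, the series title concerns the chromatin reader TRIM24, and 4 IgG libraries of the siRNA and 245-255 pairs were not analysed here. A genotype field places HA-RB(245-255) in a control group although its title names the construct, and the title was followed. Peak lists hold no protein or RNA level, so neither the knockdown nor the overexpression was checked. With no replicates, no test between conditions could be made, and no interval below covers variation between libraries of a group. Intervals of shares and of medians take genes as the units, and those of single-gene ratios cover counting error only.

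The lists held 35285 peaks for RB1 siRNA and 21666 for control siRNA, 95816 for HA-RB(245-255) and 77488 for EV(245-255), and 252425 for HA-RBN and 161012 for EV(RBN). The files state no read totals. A summit, the highest point of a listed peak, was assigned to a gene when it lay within 1 kb of either end of the gene on hg38. How many DNA fragments were stacked on a summit was recovered from the authors' fold enrichment and p-value, and enrichment was that number divided by the background of the library, which ran between 0.187 and 0.634 fragments per base. This differs from the deposited fold, which is taken over a local background. SDHB in RB1 siRNA, for example, had an enrichment of 74.3 but a deposited fold of 1.69 and a −log10 q of 0. The lowest −log10 p-value of the peak caller was 1.30 to 1.36 per list, so a listed summit can be a weak call. Where a gene had several summits, the one with the most fragments was used. The median listed interval was 51167 bp in RB1 siRNA, 83581 bp in control siRNA, 18225 bp in HA-RB(245-255) and 22317 bp in EV(245-255), but 522 bp in HA-RBN and 450 bp in EV(RBN). An interval of the first 4 lists can thus cover a gene end while its only listed summit lies elsewhere. Of the 85 genes, 55 in RB1 siRNA, 56 in control siRNA, 38 in HA-RB(245-255) and 42 in EV(245-255) had an interval within reach but no summit, against 1 in HA-RBN and 1 in EV(RBN). A missing summit in the first 4 lists therefore does not show missing binding.

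The promoters of 5 genes on which the results turn are shown as the 250 bases before the gene start, from RefSeq on GRCh38.p14, in the direction of transcription. Capitals mark matches, on either strand, to 7 motifs: NRF1 (GCGCATGCG), ETS (CCGGAAGT or CCGGAAGC), YY1 (AAGATGGCG), SP1 (GGGGCGGGG), CREB (TGACGTCA), NFY (CCAAT) and E2F (TTTNGCGC). ATP5MC1 (chr17:48892537-48892786, + strand), COX8A (chr11:63974370-63974619, + strand) and ATP5PF (chr21:25735055-25735304, - strand) had summits in all 6 lists. COX6A2 (chr16:31428361-31428610, - strand) and COX7B2 (chr4:46909246-46909495, - strand) are isoforms of restricted use that each had a summit in 1 list.
ATP5MC1: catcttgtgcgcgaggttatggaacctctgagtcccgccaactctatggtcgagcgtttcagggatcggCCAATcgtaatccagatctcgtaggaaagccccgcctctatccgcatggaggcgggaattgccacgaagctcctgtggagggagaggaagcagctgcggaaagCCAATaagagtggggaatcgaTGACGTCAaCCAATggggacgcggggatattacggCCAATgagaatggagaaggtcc
COX8A: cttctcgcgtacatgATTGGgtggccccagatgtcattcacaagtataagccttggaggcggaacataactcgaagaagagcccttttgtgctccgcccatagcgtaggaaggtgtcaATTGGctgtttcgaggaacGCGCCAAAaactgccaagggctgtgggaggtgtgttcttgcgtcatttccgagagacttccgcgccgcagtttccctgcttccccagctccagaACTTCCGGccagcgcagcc
ATP5PF: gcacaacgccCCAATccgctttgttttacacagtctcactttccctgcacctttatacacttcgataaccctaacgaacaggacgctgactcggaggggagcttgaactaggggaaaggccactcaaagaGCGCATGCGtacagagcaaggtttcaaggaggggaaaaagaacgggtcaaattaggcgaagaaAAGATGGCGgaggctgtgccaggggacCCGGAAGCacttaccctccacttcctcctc
COX6A2: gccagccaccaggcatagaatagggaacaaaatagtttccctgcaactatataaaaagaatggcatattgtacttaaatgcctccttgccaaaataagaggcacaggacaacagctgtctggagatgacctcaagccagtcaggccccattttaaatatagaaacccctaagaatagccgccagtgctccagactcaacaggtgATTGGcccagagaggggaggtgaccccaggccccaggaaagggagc
COX7B2: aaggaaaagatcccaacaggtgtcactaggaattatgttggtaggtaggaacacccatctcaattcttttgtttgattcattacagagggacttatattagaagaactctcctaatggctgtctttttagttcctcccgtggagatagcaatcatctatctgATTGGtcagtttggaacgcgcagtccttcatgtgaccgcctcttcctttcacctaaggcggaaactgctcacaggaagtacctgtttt
The window of ATP5MC1 held 4 NFY motifs and a CREB motif, that of COX8A an ETS, an E2F and 2 NFY motifs, and that of ATP5PF an NRF1, a YY1, an ETS and an NFY motif. COX6A2 and COX7B2 held 1 NFY motif each. The dinucleotide CG occurred 18 times in the window of ATP5MC1, 16 times in that of COX8A and 12 times in that of ATP5PF, against 1 time in that of COX6A2 and 5 times in that of COX7B2. COX6A2 and COX7B2 had the fewest among the restricted isoforms with a promoter window, and the range over all genes is given below.

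Subunit genes had summits about as often as protein-coding genes in general in the siRNA and 245-255 libraries and more often in the RBN pair. In RB1 siRNA 29 of the 85 genes had a summit (34.1%, exact Clopper-Pearson 95% interval 24.2 to 45.2), against 33.5% of all genes. In control siRNA it was 28 genes (32.9%, 23.1 to 44.0), against 28.1% of all genes. The share was 45 genes in HA-RB(245-255) (52.9%, 41.8 to 63.9) and 43 genes in EV(245-255) (50.6%, 39.5 to 61.6), while 45.5% and 45.4% of all genes had a summit in these lists. The all-gene share lay inside the interval in each of these 4 libraries. In HA-RBN 76 genes had a summit (89.4%, 80.8 to 95) against 73.4% of all genes, and in EV(RBN) 71 genes (83.5%, 73.9 to 90.7) against 60.2%. Both all-gene shares of the RBN pair lay below the interval. By complex, HA-RBN had 35 of 36 genes of complex I (85.5 to 99.9), 4 of 4 of II, 8 of 9 of III, 12 of 17 of IV (70.6%) and 17 of 19 of V (66.9 to 98.7). EV(RBN) had 31 of 36 (70.5 to 95.3), 4 of 4, 7 of 9, 12 of 17 (70.6%) and 17 of 19 (66.9 to 98.7). The all-gene share lay below the interval for complex I in both libraries and for complex V in EV(RBN), and inside it otherwise. The empty vector library showed this as well as HA-RBN, and the RBN lists were the longest and the only ones without IgG libraries among the samples. Shares in lists cut to equal length are given below, without a test, and the part of IgG in this excess was not tested.

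**Figure D1:**
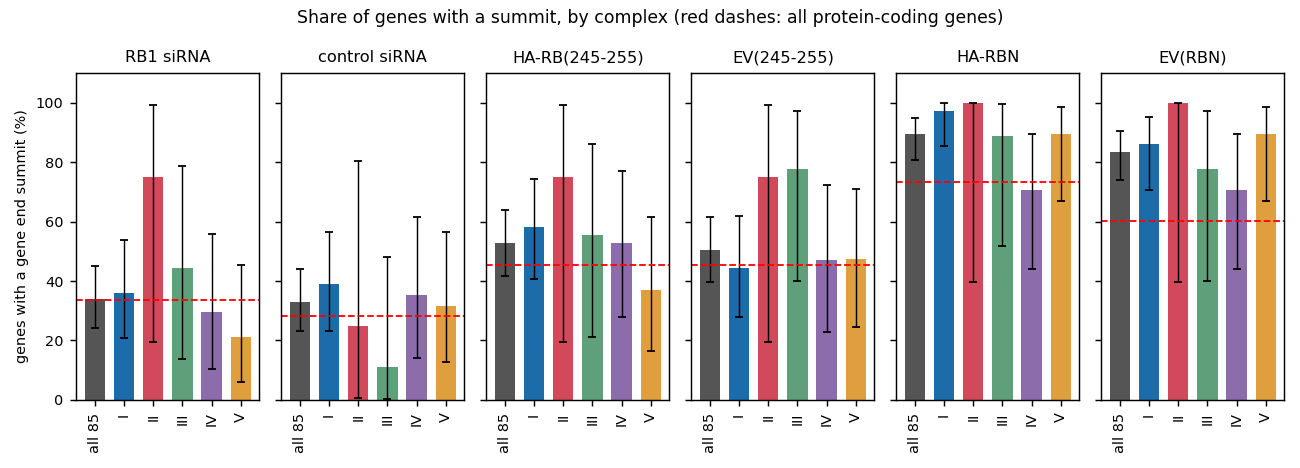
Bars give the percent of genes with a gene end summit, for all 85 genes and for complexes I to V, in each library; black lines are exact 95% binomial intervals and red dashes the share of all protein-coding genes. The grey bar stands above the dashes by more than its interval in HA-RBN (89.4%) and EV(RBN) (83.5%) and in neither of the other pairs.

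The excess in the RBN pair depended in part on how summits were counted. Among peaks with −log10 q of at least 5, HA-RBN had 45 genes (52.9%, 41.8 to 63.9), against 30.1% of all genes, and EV(RBN) had 11 (12.9%, 6.64 to 22.0), against 8.36%. The siRNA lists kept few of these genes at that q, 0 in RB1 siRNA (against 0.2% of all genes) and 1 in control siRNA (against 0.404%). HA-RB(245-255) kept 3 (3.53%, 0.734 to 9.97, against 0.369%) and EV(245-255) kept 0 (against 0.215%). The all-gene share of HA-RB(245-255) thus lay below the interval, which rests on 3 genes. When each list was cut to the length of the shortest one, by p-value, 62 genes had a summit in HA-RBN (72.9%, 62.2 to 82.0), against 42.7% of all genes, and 43 in EV(RBN) (50.6%, 39.5 to 61.6), against 29.4%. In lists of this length, 23 genes had one in RB1 siRNA (27.1%, against 29%) and 34 in HA-RB(245-255) and 27 in EV(245-255) (40.0% and 31.8%, against 30.1% and 29%). In lists of equal length the all-gene share lay below the interval in both RBN libraries, while at the stricter q it did so in HA-RBN and lay inside the interval in EV(RBN).

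Within 2 kb of a gene end, 77 genes had a summit in HA-RBN (90.6%, 82.3 to 95.8), and the 85% of all genes lay inside that interval. In EV(RBN) 75 genes did (88.2%, 79.4 to 94.2), against 72.4%. The 2 kb window gave 32 genes in RB1 siRNA (against 37.9% of all genes) and 28 in control siRNA (against 31.5%), and 48 in HA-RB(245-255) (against 54%) and 49 in EV(245-255) (against 53.9%). Listed starts, which include alternative starts inside a gene, were counted for the 69 genes that have one, with 66 in HA-RBN (95.7%, against 71.8%) and 59 in EV(RBN) (85.5%, against 57%). Starts with a summit numbered 29 in RB1 siRNA (42.0%, against 36.6%) and 24 in control siRNA (34.8%, against 30.7%), and 40 in HA-RB(245-255) (58.0%, against 47.1%) and 37 in EV(245-255) (53.6%, against 46.9%). In each library, 2 to 4 of these genes had a summit at a listed start and at neither gene end, in HA-RBN ATP5MC2, COX7A2 and NDUFA5. By complex, these starts had a summit in HA-RBN at 31 of 31 genes of complex I, 3 of 3 of complex II, 7 of 7 of complex III and 14 of 14 of complex V, but at 11 of 14 genes of complex IV. The EV(RBN) counts were 28 of 31, 3 of 3, 5 of 7 and 13 of 14 genes, and 10 of 14 of complex IV.

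The summits of these genes were mostly of ordinary height. Among genes with a summit, the subunit genes had a median of 25 fragments in RB1 siRNA and 18.5 in control siRNA, against 28 and 25 for all genes. The medians were 12 in HA-RB(245-255) and 13 in EV(245-255), against 11 and 12 for all genes. They were 14 in HA-RBN and 6 in EV(RBN), against 10 and 5 for all genes. Summits of at least 20 fragments stood at 19 of the 85 genes in RB1 siRNA (22.4%, against 21.5% of all genes) and at 13 in control siRNA (15.3%, against 17%). They stood at 12 genes in HA-RB(245-255) and 12 in EV(245-255) (14.1% each, against 12.8% and 13.2%), and at 24 genes in HA-RBN (28.2%, against 18.4%) and 5 in EV(RBN) (5.88%, against 2.83%). The 5 genes in EV(RBN) were NDUFA11 with 46 fragments, ATP5MC1 with 31, ATP5F1B with 27, UQCRC2 with 25 and UQCRH with 24.

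A summit in all 6 lists was found at 11 of the 85 genes (12.9%, 6.64 to 22.0), close to the 13.1% of all genes. Of these, 5 belonged to complex I, 1 to complex II, 3 to complex IV and 2 to complex V, and complex III had none. No summit in any list was found at 2 genes, NDUFA5 and UQCRHL, whereas 14.1% of all genes had none. A summit was listed in 1 library at 6 genes, in 2 at 20, in 3 at 18, in 4 at 14 and in 5 at 14. The subunit genes were listed in 3.44 of 6 libraries on average and all genes in 2.86.

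**Figure D2:**
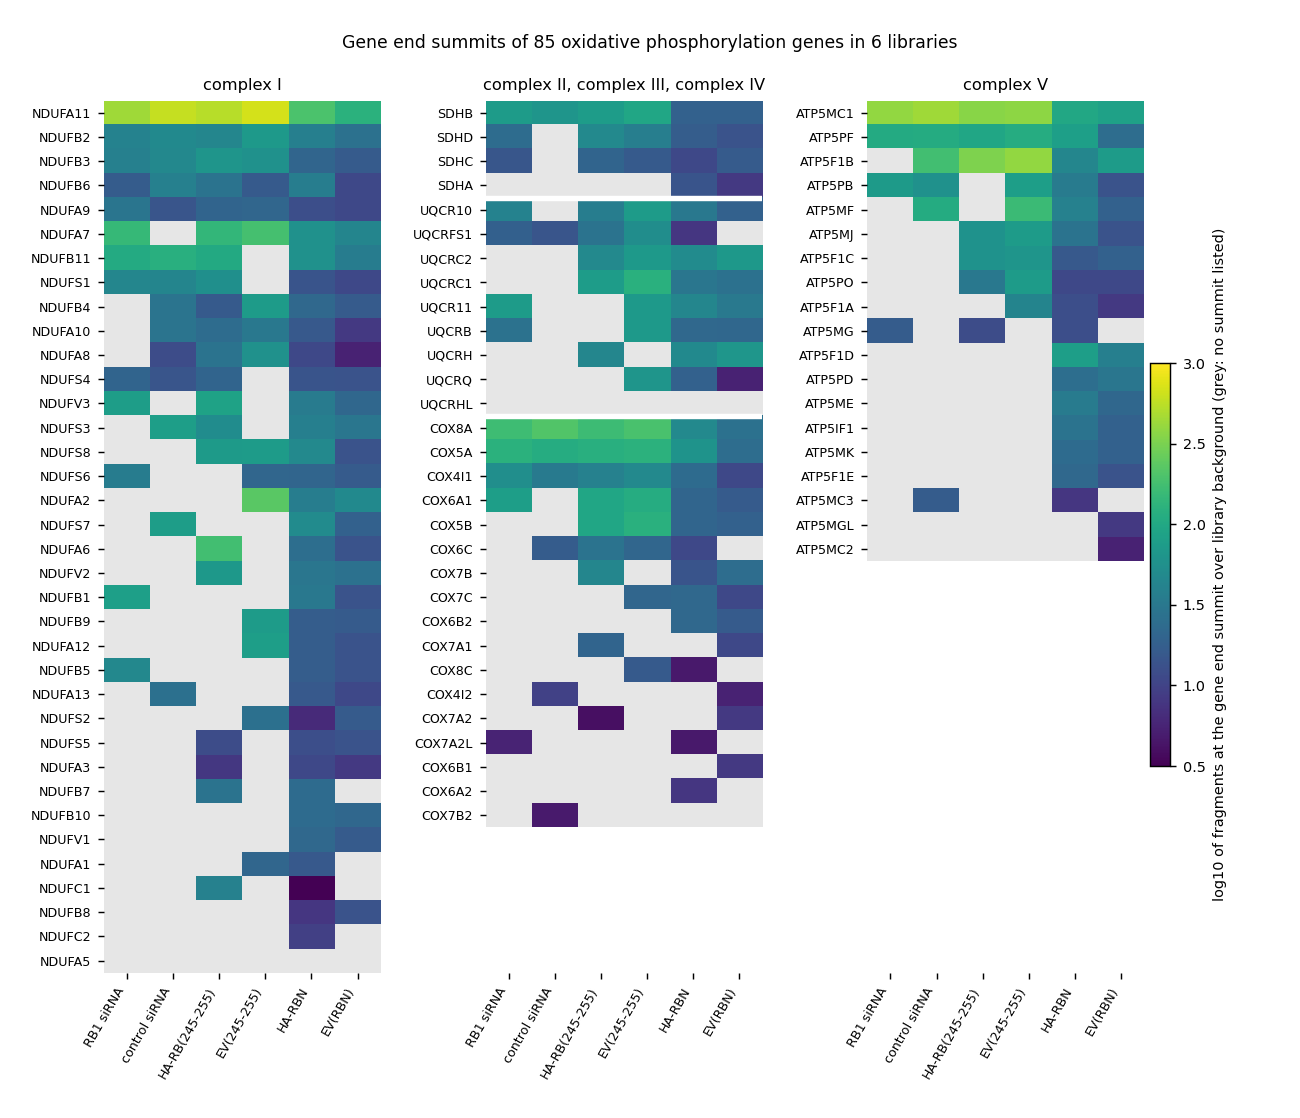
Each row is a gene and each column a library; colour gives log10 of the enrichment at the gene end summit and grey marks no listed summit. NDUFA11 and ATP5MC1 are high in all 6 libraries, and the first 4 columns hold more grey than HA-RBN and EV(RBN).

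Complex I genes were dominated by NDUFA11, which encodes an accessory subunit of the membrane arm. NDUFA11 had 238 fragments in RB1 siRNA and 248 in control siRNA, 134 in HA-RB(245-255) and 128 in EV(245-255), and 123 in HA-RBN and 46 in EV(RBN). NDUFA11 ranked highest of the 85 genes in all 6 lists, and its rank among all gene ends lay between 13 of 9113 in HA-RB(245-255) and 67 of 14699 in HA-RBN. The summits lay 551 to 682 bp upstream of the NDUFA11 start and between -531 and -400 bp of the start of VMAC, which runs the other way, so the signal cannot be assigned to either gene. Its own promoter window held none of the 7 motifs.

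The other complex I genes with a summit in all lists were lower. NDUFB2, an accessory subunit of the membrane arm, had 22 fragments in RB1 siRNA and 20 in control siRNA, 11 in HA-RB(245-255) and 13 in EV(245-255), and 24 in HA-RBN and 10 in EV(RBN). NDUFA9, an accessory subunit near the ubiquinone site, was the lowest of the 11 genes by the geometric mean of its enrichment, 17.1 times background. It had 16 fragments in RB1 siRNA and 6 in control siRNA, 5 in HA-RB(245-255) and 4 in EV(245-255), and 8 in HA-RBN and 4 in EV(RBN). NDUFB3 lay between 6 and 21 fragments and NDUFB6 between 3 and 23, both membrane arm subunits. The NDUFB6 summits of control siRNA, HA-RB(245-255), HA-RBN and EV(RBN) lay 20553 to 20860 bp from its own start and within 300 bp of the start of TOPORS, a neighbouring gene.

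NDUFA7, an accessory subunit of the matrix arm, is a similar case. It had 81 fragments in RB1 siRNA and no summit in control siRNA, 36 in HA-RB(245-255) and 34 in EV(245-255), and 37 in HA-RBN and 16 in EV(RBN). All 5 summits stood at its 3′ end, 34 to 156 bp downstream of the start of CD320 and 13051 to 13173 bp from the start of NDUFA7. NDUFA2, of the NADH-oxidising part of the matrix arm, had no summit in RB1 siRNA, control siRNA or HA-RB(245-255), but 43 fragments in EV(245-255), 23 in HA-RBN and 18 in EV(RBN). Its EV(245-255) summit was the fourth highest of the 85 genes in that list, and its summits lay between -131 and 109 bp of the start of IK, a divergent neighbour. NDUFA6, another matrix arm subunit, had 44 fragments in HA-RB(245-255), no summit in EV(245-255) or either siRNA list, and 16 in HA-RBN and 5 in EV(RBN). NDUFA5, of the matrix arm, had no summit within 1 kb of its gene ends in any list, and NDUFC2, of the membrane arm, had 6 fragments in HA-RBN and no summit elsewhere.

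Complex II, succinate dehydrogenase, also belongs to the citric acid cycle. SDHB, its iron-sulfur subunit, had 40 fragments in RB1 siRNA and 26 in control siRNA, 19 in HA-RB(245-255) and 18 in EV(245-255), and 12 in HA-RBN and 7 in EV(RBN). SDHB was the only complex II gene with a summit in control siRNA. SDHC, a membrane anchor, had 8 fragments in RB1 siRNA and none listed in control siRNA, 5 in HA-RB(245-255) and 3 in EV(245-255), and 7 in HA-RBN and 6 in EV(RBN). SDHD, the other anchor, had 13 fragments in RB1 siRNA and none listed in control siRNA, 12 in HA-RB(245-255) and 7 in EV(245-255), and 11 in HA-RBN and 5 in EV(RBN). SDHA, the flavoprotein that oxidises succinate, had 9 fragments in HA-RBN and 3 in EV(RBN) and no summit in the other lists.

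Complex III genes had a summit at 4 of 9 in RB1 siRNA (44.4%, 13.7 to 78.8) and at 1 of 9 in control siRNA (11.1%, 0.281 to 48.2), and the 33.5% and 28.1% of all genes lay inside these intervals. In the 245-255 pair it was 5 of 9 in HA-RB(245-255) (55.6%, 21.2 to 86.3) and 7 of 9 in EV(245-255) (77.8%, 40.0 to 97.2). The 45.5% and 45.4% of all genes lay inside these intervals too. UQCRFS1, the Rieske iron-sulfur protein, was the one listed in control siRNA. It had 10 fragments in RB1 siRNA and 6 in control siRNA, 7 in HA-RB(245-255) and 10 in EV(245-255), and 5 in HA-RBN with no summit in EV(RBN). The core protein gene UQCRC2 and the hinge protein gene UQCRH showed the other pattern, with summits missing from both siRNA lists and high in the RBN pair. UQCRC2 had 12 fragments in HA-RB(245-255) and 13 in EV(245-255), and 32 in HA-RBN and 25 in EV(RBN). UQCRH had 11 in HA-RB(245-255) and none listed in EV(245-255), and 31 in HA-RBN and 24 in EV(RBN). Both genes ranked within the highest 5 of the 85 in EV(RBN), at 275 and 322 of 12053 gene ends.

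Complex IV had 3 genes with a summit in all lists, each a widely used form. COX8A, a small membrane subunit, had 91 fragments in RB1 siRNA and 86 in control siRNA, 41 in HA-RB(245-255) and 36 in EV(245-255), and 30 in HA-RBN and 10 in EV(RBN). COX5A, a subunit on the matrix side, had 68 fragments in RB1 siRNA and 46 in control siRNA, 30 in HA-RB(245-255) and 24 in EV(245-255), and 39 in HA-RBN and 9 in EV(RBN). COX4I1, the widely used form of the largest nuclear subunit, was the lowest complex IV gene with a summit in all lists. It had 29 fragments in RB1 siRNA and 14 in control siRNA, 10 in HA-RB(245-255) and 9 in EV(245-255), and 15 in HA-RBN and 4 in EV(RBN).

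The isoforms of restricted use are COX4I2, a lung and low-oxygen form, COX6A2 and COX7A1 of heart and skeletal muscle, COX6B2 and COX8C of testis, COX7B2, and UQCRHL, an intronless copy of UQCRH. These 7 genes had a summit in 10 of 42 gene and library combinations (23.8%), with 2 to 14 fragments. Their 7 widely used partners, COX4I1, COX6A1, COX6B1, COX7A2, COX7B, COX8A and UQCRH, had one in 26 of 42 (61.9%), with 1 to 91 fragments, and all genes had one in 47.7% of such combinations. COX6A1 had 43 fragments in RB1 siRNA and no summit in control siRNA, 24 in HA-RB(245-255) and 21 in EV(245-255), and 13 in HA-RBN and 6 in EV(RBN), whereas COX6A2 had 5 fragments in HA-RBN and no summit elsewhere. COX7B had 11 fragments in HA-RB(245-255), 9 in HA-RBN and 9 in EV(RBN), and COX7B2 2 in control siRNA alone. COX8C had 3 fragments in EV(245-255) and 3 in HA-RBN, and COX4I2 had 4 in control siRNA and 2 in EV(RBN).

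The partners did not all follow this order. COX6B2 had 14 fragments in HA-RBN and 6 in EV(RBN), while COX6B1 had 3 in EV(RBN) and no gene end summit elsewhere. In the siRNA and 245-255 lists, however, an interval covered the lower end of COX6B1, with its summit of 50 to 123 fragments 3756 to 3758 bp away. An interval of these lists covered the lower end of COX6B2 too, with the summit 3789 to 10180 bp away. COX7A1, with 5 fragments in HA-RB(245-255) and 4 in EV(RBN), was listed in as many libraries as COX7A2, with 1 in HA-RB(245-255) and 3 in EV(RBN). Among complex IV genes alone, the 6 restricted isoforms had 0 summits in RB1 siRNA and 2 in control siRNA, 1 in HA-RB(245-255) and 1 in EV(245-255), and 3 in HA-RBN and 3 in EV(RBN). The other 11 genes had 5 in RB1 siRNA and 4 in control siRNA, 8 in HA-RB(245-255) and 7 in EV(245-255), and 9 in HA-RBN and 9 in EV(RBN). In each of the 6 libraries the share of all genes lay inside the exact interval of both sets.

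**Figure D3:**
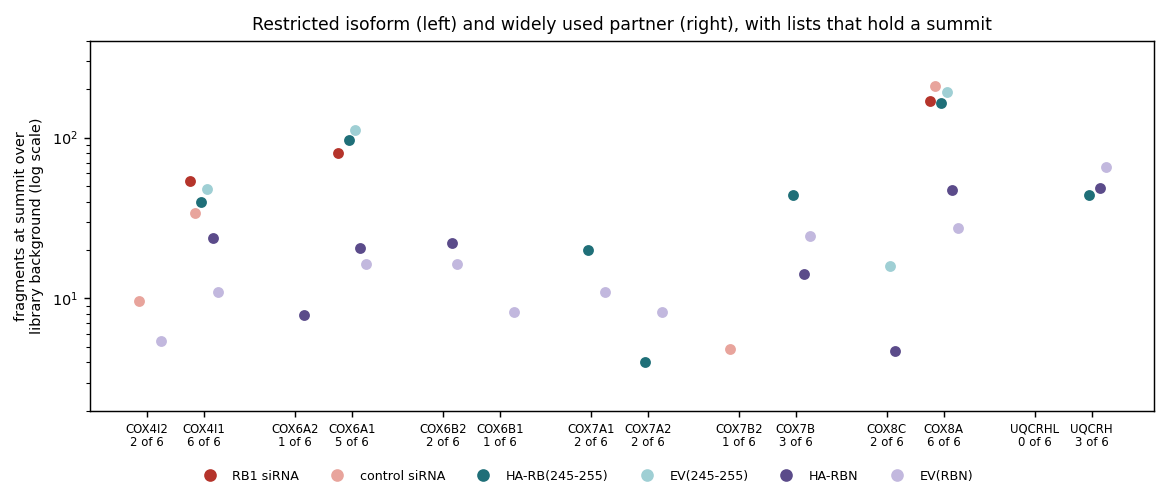
Points give the enrichment of the gene end summit on a log scale in the libraries that list one, for each restricted isoform (left of a pair) and its widely used partner (right); a gene with fewer points had no summit in the other lists. COX4I1, COX6A1 and COX8A stand in 5 or 6 lists, while COX6B1 and COX7A2 stand in 1 and 2.

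Complex V genes held the second highest signal. ATP5MC1, one of the genes for subunit c of the rotor ring, had 210 fragments in RB1 siRNA and 182 in control siRNA, 90 in HA-RB(245-255) and 70 in EV(245-255), and 63 in HA-RBN and 31 in EV(RBN). Its rank was 3 among the 85 genes in EV(245-255) and 2 in the other 5 lists, and its summits lay 175 to 260 bp upstream of its start. At their gene ends the other subunit c genes had less. ATP5MC2 had 2 fragments there in EV(RBN) alone, and ATP5MC3 had 7 in control siRNA and 5 in HA-RBN. At a listed start inside the gene, however, ATP5MC2 had a summit in RB1 siRNA, HA-RB(245-255), EV(245-255) and HA-RBN. A summit 5377 bp from its upper gene end held 120 fragments in RB1 siRNA and 65 in HA-RB(245-255). ATP5F1B, the catalytic beta subunit, had no summit in RB1 siRNA and 73 fragments in control siRNA, 83 in HA-RB(245-255) and 74 in EV(245-255), and 28 in HA-RBN and 27 in EV(RBN).

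ATP5PF, a subunit of the peripheral stalk, had 58 fragments in RB1 siRNA and 45 in control siRNA, 24 in HA-RB(245-255) and 21 in EV(245-255), and 52 in HA-RBN and 9 in EV(RBN). Its promoter is shared with GABPA, the DNA-binding subunit of an ETS family factor. The same summits therefore count for both genes. ATP5F1D, the delta subunit of the central stalk, had 50 fragments in HA-RBN and 14 in EV(RBN) and no summit in the other lists. ATP5MGL, a copy of the subunit g gene, had 3 fragments in EV(RBN) alone.

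Summits of the subunit genes lay close to gene starts. Among genes with a listed start, the summit was within 300 bp of it for 76.9% of 26 genes in RB1 siRNA and 82.6% of 23 in control siRNA, against 75.3% and 74.3% of all genes with a summit and a start. The shares were 80.0% of 40 in HA-RB(245-255) and 75.0% of 36 in EV(245-255), against 68.4% and 68.8%. HA-RBN had 75.0% of 64 and EV(RBN) had 64.4% of 59, against 53.4% and 47.4%. The median distance from the start was 238.5 bp in HA-RBN and 204 bp in EV(RBN), against 275 and 322 bp for all genes. Between 100 and 142 bp was found in the other 4 lists, against 153 to 169 bp.

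**Figure D4:**
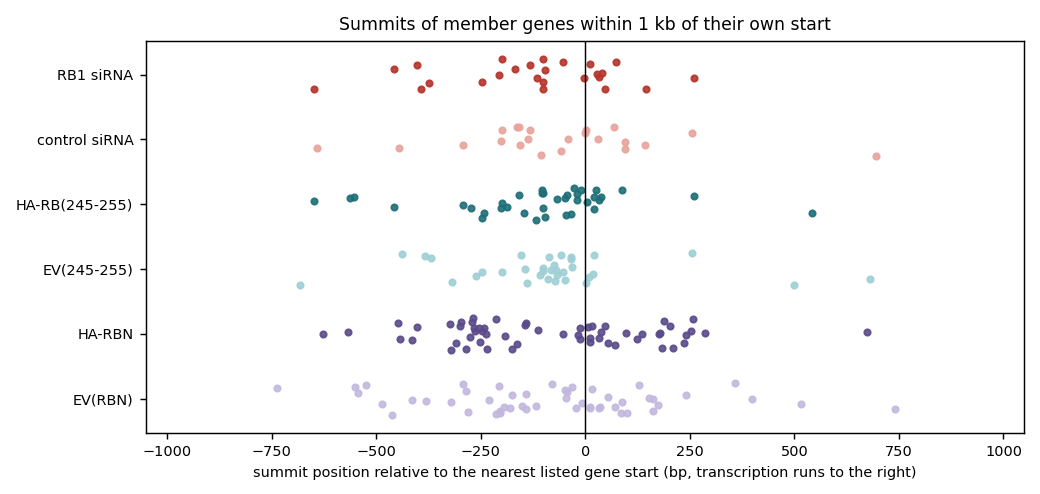
Each point is the summit of a gene within 1 kb of its own start, by library, with distance from the start in bp and transcription to the right. In HA-RBN the points form groups on both sides of the start (median distance 238.5 bp), while in EV(245-255) they gather nearer to it (median 100 bp).

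Of the 83 genes with a summit in any list, 36 had another protein-coding gene end within 1 kb of a summit (43.4%, against 25.2% of the 17209 such genes in all). At 20 of them both the own start and a neighbour's start were within reach, as at NDUFA2 with IK and UQCRH with LRRC41. At the edge of the window, the farthest summit counted was that of NDUFB10 in EV(RBN), at 953 bp with 8 fragments. The nearest ones left out were those of UQCRHL in HA-RBN at 1003 bp, UQCRB in HA-RB(245-255) at 1031 bp and UQCRHL in RB1 siRNA at 1037 bp.

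Promoter windows of 300 bases, 250 before and 50 after the start, were available for 69 of the 85 genes and for 15842 genes in all. An NRF1 motif stood in 9 of the 69 (13.0%, against 2.76% of all windows), an ETS motif in 17 (24.6%, against 10.6%) and a YY1 motif in 8 (11.6%, against 2.69%). At least 1 of these 3 was found in 27 (39.1%, against 15.0%). A CREB motif stood in 5 (7.25%, against 2.56%), an E2F motif in 4 (5.80%, against 2.40%), an NFY motif in 25 (36.2%, against 36.4%) and an SP1 motif in 10 (14.5%, against 22.1%). NRF1 and E2F motifs can share the letters GCGC. Both strands were searched, and a match is a description of these letters only. Complex III and the restricted isoforms shown above held no NRF1 motif in their windows. Genes with an NRF1 motif were listed in 4.33 of 6 libraries on average and those without in 3.48, and over all windows the averages were 4.03 and 2.91. For YY1 they were 4.75 and 3.44 (4.14 and 2.91 over all windows), for CREB 5 and 3.48 (3.63 and 2.93) and for E2F 4 and 3.57 (3.89 and 2.92). The averages lay closer for ETS, at 3.71 and 3.56 (3.82 and 2.84 over all windows), and for SP1, at 3.70 and 3.58 (3.58 and 2.76). For NFY the subunit genes with the motif had the lower average, 3.08 and 3.89 (3.11 and 2.85 over all windows). A summit in all 6 lists was found at 1 of the 9 genes with an NRF1 motif (11.1%) and at 10 of the 60 without (16.7%). The median number of CG dinucleotides per window was 22 for the subunit genes and 22 for all genes. It was 9 for the 4 restricted isoforms with a window, which ranged between 5 and 31, within the 0 to 42 of the subunit genes. The restricted COX6B2 had the 31, and the widely used COX7A2 had the 0.

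Enrichment was compared within each pair at summits of both lists that lay within 200 bp of each other at the same gene. The log2 ratio is given relative to the median over all shared summits of the pair, which was -0.12 for the siRNA pair, -0.44 for the 245-255 pair and 0.53 for the RBN pair. A ratio past 1 or -1, a 2-fold difference, was taken as large.

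RB1 siRNA and control siRNA shared a summit at 13 subunit genes, of 2790 shared summits in all. The median relative log2 ratio was 0.15 (order-statistic 95% interval -0.13 to 0.47), with 8 genes above 0 and 5 below. NDUFA9 alone was past the threshold, at 1.15 (-0.28 to 2.79), with 16 fragments in RB1 siRNA and 6 in control siRNA, and 1.04% of all shared summits were past 1. COX4I1 followed at 0.79 (-0.18 to 1.82), UQCRFS1 at 0.47, and ATP5PB, a peripheral stalk subunit, at 0.44. The lowest were NDUFA11 at -0.32 (-0.59 to -0.06), COX8A at -0.18, NDUFB2 at -0.13 and NDUFB3 at -0.12. No gene was below -1, where 0.466% of all shared summits lay. The counting intervals of NDUFA9 and COX4I1 included 0, and that of NDUFA11 did not.

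Summits listed in 1 library of the siRNA pair did not show absence from the other. By summits alone, 13 subunit genes were listed in RB1 siRNA only (against 13.6% of all genes) and 12 in control siRNA only (against 8.17%). None of them lacked an interval of the other library within 1 kb, a condition met by 0.18% and 0.11% of all genes. The genes listed in RB1 siRNA only included SDHC, SDHD, UQCR10, UQCR11 and UQCRB, and those in control siRNA only included ATP5F1B, ATP5MF and NDUFS7.

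HA-RB(245-255) and EV(245-255) shared a summit at 26 subunit genes, of 4081. The median relative log2 ratio was 0.15 (-0.09 to 0.35), with 18 genes above 0 and 8 below. NDUFB4, a membrane arm subunit of complex I, was past the threshold at -1.78 (-3.84 to -0.11), with 4 fragments in HA-RB(245-255) and 14 in EV(245-255), and 2.47% of all shared summits were below -1. No gene was above 1, where 2.5% of all shared summits lay. The next lowest were ATP5PO, the stalk subunit also called OSCP, at -0.78, NDUFA8 at -0.62 and UQCR10 at -0.61, and without centring these 3 were also below -1, at -1.22, -1.07 and -1.05. The highest were COX6C at 0.84, SDHD at 0.81, SDHC at 0.77 and NDUFB3 at 0.57, with 16 fragments or fewer and intervals that included 0.

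By complex, 6 of 6 genes of complex IV, 3 of 3 of complex II, 5 of 6 of complex V, 4 of 7 of complex I and 0 of 4 of complex III were above the median of the pair. Without that centring, 1 of 6, 2 of 3, 0 of 6, 1 of 7 and 0 of 4 were above 0, so these directions, complexes II and III apart, hold relative to other genes only. The 4 complex III genes ran between -0.61 for UQCR10 and -0.09 for UQCRC2, each with an interval that included 0. NDUFA2 was the gene listed in EV(245-255) with no interval of HA-RB(245-255) within 1 kb, a condition met by 0.215% of all genes. No subunit gene was listed in HA-RB(245-255) in this way, where 0.165% of all genes were. Judged by summits, 16 genes were in HA-RB(245-255) only (against 14.2% of all genes) and 14 in EV(245-255) only (against 14.1%).

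HA-RBN and EV(RBN) shared a summit at 44 subunit genes, of 5048, which made this the best sampled pair. The median relative log2 ratio was -0.17 (-0.32 to 0.04), with 16 genes above 0 and 28 below. Without centring, the median was 0.36, and 35 genes were above 0 and 9 below. Above 1 were ATP5PF at 1.21 (0.17 to 2.42), with 52 fragments in HA-RBN and 9 in EV(RBN), NDUFB6 at 1.20 (-0.35 to 3.19), with 23 in HA-RBN and 4 in EV(RBN), and NDUFS7 at 1.09 (-0.18 to 2.64), with 32 in HA-RBN and 6 in EV(RBN). These 3 of 44 compare with 4.79% of all shared summits. The NDUFB6 summits are those at TOPORS, and those of ATP5PF are shared with GABPA. NDUFS7 encodes an iron-sulfur core subunit of complex I. Its summits, at 1395244 in HA-RBN and 1395403 in EV(RBN), stood at its 3′ end, whereas its promoter window has the start at 1383907. Among shared summits with at least 20 fragments in either library, ATP5PF was at 0.96, NDUFB6 at 0.96 and NDUFS7 at 0.85, so none of the 3 was above 1.

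Below -1 were COX7B at -1.32 (-2.83 to 0.19), with 9 fragments in HA-RBN and 9 in EV(RBN), and ATP5F1B at -1.27 (-2.09 to -0.45), with 28 in HA-RBN and 27 in EV(RBN). These 2 of 44 compare with 6.44% of all shared summits. NDUFA2 at -0.97, UQCRC2 at -0.97 (-1.77 to -0.15) and UQCRH at -0.95 (-1.77 to -0.12) followed. Under the same minimum, NDUFA2 at -1.21 and UQCRC2 at -1.21 were also below -1, and without centring COX7B at -0.79 and ATP5F1B at -0.74 were not. COX5A was the next highest gene after the 3 above 1, at 0.79 (-0.28 to 2.02), and at 1.32 without centring. The genes with centred intervals that left out 0 were thus ATP5PF above and ATP5F1B, UQCRC2 and UQCRH below. The upper limits of the latter 3, -0.45, -0.15 and -0.12, lay nearer to 0 than the pair median of 0.53. Without centring, the intervals of these 3 genes therefore include 0, so they were low relative to other genes only.

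By complex, 0 of 5 genes of complex III and 0 of 2 of complex II were above the median of the pair, against 7 of 19 of complex I, 4 of 8 of complex IV and 5 of 10 of complex V. The complex III median was -0.51, and without centring 3 of its 5 genes were above 0. Complex III genes thus lay below the pair median in both plasmid pairs, at 4 genes in the 245-255 pair and 5 in the RBN pair, of which UQCRC1 and UQCRC2 were in both. In the siRNA pair its 1 shared gene, UQCRFS1, was above.

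At gene ends, HA-RBN alone listed 10 genes with no interval of EV(RBN) within 1 kb, against 17.4% of all genes. They were NDUFA1, NDUFB7, NDUFC2, UQCRFS1, COX6A2, COX6C, COX7A2L, COX8C, ATP5MC3 and ATP5MG, with 3 to 15 fragments in HA-RBN. EV(RBN) alone listed 6, against 4.59% of all genes: COX4I2, COX6B1, COX7A1, COX7A2, ATP5MC2 and ATP5MGL, with 2 to 4 fragments in EV(RBN). Away from gene ends, at a listed start, HA-RBN did have a summit at COX7A2 and ATP5MC2, and EV(RBN) had one at COX7A2L. Complex IV supplied 4 of the 10 and 4 of the 6. Judged by summits, the counts were 11 in HA-RBN only (against 20.4% of all genes) and 6 in EV(RBN) only (against 7.2%).

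**Figure D5:**
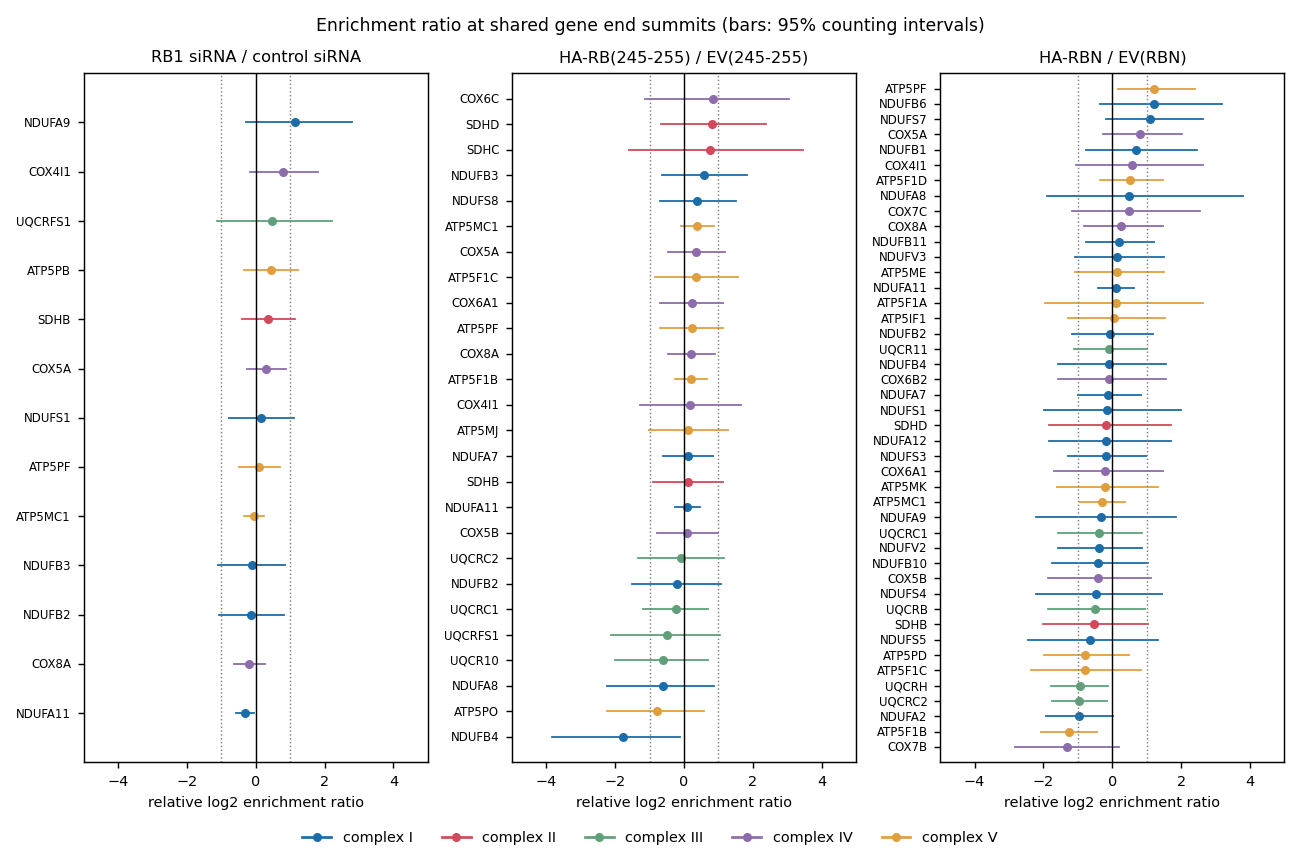
Points give the relative log2 enrichment ratio of each shared gene, coloured by complex, with bars for 95% counting intervals, a solid line at the median of all shared summits and dotted lines at 1 and -1. Most bars cross the solid line; NDUFA11 in the siRNA pair, NDUFB4 in the 245-255 pair, and ATP5PF, ATP5F1B, UQCRC2 and UQCRH in the RBN pair do not.

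Genes that build or feed the complexes were listed in larger shares than the subunits, but some of their intervals included the subunit share. Of 42 assembly factors, which insert cofactors and join subunits, 22 had a summit in RB1 siRNA and 21 in control siRNA, 28 in HA-RB(245-255) and 30 in EV(245-255), and 39 in HA-RBN and 38 in EV(RBN). Of the 42 assembly factors, 10 (23.8%) were in all 6 lists. COX20 had the most fragments in 3 libraries, with 192 in RB1 siRNA, 75 in HA-RBN and 20 in EV(RBN). Of 18 citric acid cycle and pyruvate dehydrogenase genes, 6 (33.3%) were in all lists, and their median relative log2 ratio in HA-RBN against EV(RBN) was 0.55 (-0.26 to 1.07) over 13 shared genes. That ratio was 0.11 (-0.15 to 0.42) over 23 assembly factors and -0.32 (-0.91 to 1.03) over 10 regulators, each interval including 0. Among 20 regulators and mitochondrial genome upkeep genes, 5 (25.0%) were in all lists, and ESRRA, an orphan nuclear receptor, was the highest in 5 libraries. ESRRA had 193 fragments in RB1 siRNA and 131 in control siRNA, 50 in HA-RB(245-255) and 52 in EV(245-255), and 105 in HA-RBN and 33 in EV(RBN). These shares compare with 12.9% of the subunit genes and 13.1% of all genes in all 6 lists, and the difference was not tested.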

How the data were processed

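The submitters' processing notes name MACS2 2.1.0, Bowtie 1.1.2, Trimmomatic 0.33, bcl2fastq 2.17 and build hg38, without settings or control libraries. The authors deposited 1 peak list per library, without header. The deposited columns used were the authors' fold enrichment (a ratio), −log10 p-value, −log10 q-value and summit distance; the deposited integer score served no result. Peaks outside chromosomes 1-22, X and Y were left out. Fold and p-value together give whole fragment numbers, in steps of 0.0166 to 0.0512 in lists with an IgG partner. At least 99.98% of peaks were solved, with the lowest of several solutions at 4.07% to 10.7%. The recovery was run on simulated peaks built with the same formula. Such peaks can show whether the numbers are returned, but not whether the formula holds for these lists. Shares carry exact Clopper-Pearson intervals, and PCR copies are not independent molecules. Python 3.11.15, numpy 2.4.6, pandas 2.3.3, scipy 1.17.1 and matplotlib 3.10.9 were used. Gene positions, names and promoters came from RefSeq (GRCh38.p14); 16 subunit genes had no promoter entry.

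Members and lists were chosen with earlier results of these data known. Named genes were, per complex, the 2 highest and the lowest of those in all lists, the 4 highest and 4 lowest ratios per pair, genes in 0 or 1 list or in 1 library of a pair, the isoform pairs, those at the window edge, NDUFA2 and SDHA to SDHD. Others, such as NDUFA6, NDUFA7 and ATP5F1D, were chosen after their values were seen. Alternatives were a 2 kb window, gene starts, −log10 q of at least 5, lists of equal length, other summit distances, no centring and at least 20 fragments.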

Additional observations from a re-analysis of the deposited data

How the results depend on the processing

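Of the main values under the alternatives, 49 stayed within their intervals and 19 moved. Peaks with −log10 q of at least 5 left a summit at 0% of the 85 genes in RB1 siRNA and 1.18% in control siRNA. The shares were 3.53% in HA-RB(245-255) and 0% in EV(245-255), and 52.9% in HA-RBN and 12.9% in EV(RBN). A summit in all 6 lists at once was then left at 0% of each complex, which for complex III was already so in the main setting. Fewer peaks enter at that q by construction. Lists cut to the shortest one gave 40.0% in HA-RB(245-255) and 31.8% in EV(245-255), and 72.9% in HA-RBN and 50.6% in EV(RBN). Cut in this way, all 6 lists at once had a summit at 2.78% of complex I and 0% of complex II. Gene starts gave 95.7% in HA-RBN. Without centring, the median log2 ratio was -0.29 for HA-RB(245-255) against EV(245-255) and 0.36 for HA-RBN against EV(RBN), the opposite sign in both pairs to the centred median, 0.15 and -0.17. The window of 2 kb, other summit distances and 20 fragments moved none of these out of their own intervals. The comparison with all genes did change with the 2 kb window. In HA-RBN the share was 90.6% (82.3 to 95.8) there, and the 85% of all genes lay inside that interval. Adding NDUFAB1, COXFA4L2 and COXFA4, partly chosen after the data were seen, moved no share. No paired analysis was possible because each group has 1 library, and no replicate could be left out. Under 10 fragments in a library stood behind 2 of 13 ratios of the siRNA pair, 9 of 26 of the 245-255 pair and 28 of 44 of the RBN pair.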

Other observations

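Subunit-related genes outside the symbol rule included one with strong signal in all 6 lists. COXFA4L2, formerly NDUFA4L2 and a low-oxygen form of COXFA4, had 112 fragments in RB1 siRNA and 61 in control siRNA, 55 in HA-RB(245-255) and 46 in EV(245-255), and 50 in HA-RBN and 19 in EV(RBN). COXFA4, formerly NDUFA4 and a subunit found with complex IV, had no summit in RB1 siRNA and 53 fragments in control siRNA, 4 in HA-RB(245-255) and none listed in EV(245-255), and 53 in HA-RBN and 17 in EV(RBN). NDUFAB1, the acyl carrier protein of complex I, had 5 fragments in EV(245-255), 12 in HA-RBN and 5 in EV(RBN).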
